A study of Mus musculus with 40 samples.

Results

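The oligoadenylate synthetase (Oas) family was followed through mouse bone marrow cells that lacked Dnmt3a, Sting or both. Its 8 members were taken by gene symbol from the 35976 rows of the gene table: Oas1a, Oas1b, Oas1c, Oas1g, Oas2, Oas3, Oasl1 and Oasl2.

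Oas enzymes bind double-stranded RNA and join ATP into short chains of adenosine linked through an unusual bond. These chains act as a signal in the antiviral defence of the cell. The genes are classical targets of type I interferon, whose receptor works through a transcription factor complex that contains Irf9 and binds the interferon-stimulated response element. Sting lies upstream of interferon: it is the adaptor through which cytosolic DNA, sensed by cGAS, leads to interferon production. Dnmt3a is a de novo DNA methyltransferase that is often mutated in clonal haematopoiesis.

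The libraries were made from polyA RNA with a modified SMART-Seq2 method. From marrow cells selected on the receptor Kit (c-kit+), a mixture of progenitors, there were 2 wild-type (WT), 2 Dnmt3a knockout (KO), 2 Sting KO and 3 double knockout (DKO) libraries. Sorted long-term haematopoietic stem cells (LT-HSC) and myeloid progenitors labelled CMP/GMP (common together with granulocyte-macrophage) had 4 Dnmt3a KO and 4 WT libraries each, and megakaryocyte-erythroid progenitors (MEP) had 4 Dnmt3a KO and 3 WT. The series describes the Dnmt3a KO as floxed Dnmt3a with Mx1-Cre, a recombinase driven by a promoter that is itself interferon-inducible. How the Cre was induced, how long before sampling, whether WT animals carried it, and the strain, age and kind of Sting allele are not stated in the labels. The labels name no animals, so a p-value here reflects the spread among libraries alone, which may be technical.

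All 8 members lie on chromosome 5 of GRCm38 (mm10; GENCODE vM21 positions), in 2 clusters. Oasl2 (114896936 to 114912234) and Oasl1 (114923240 to 114937915) are neighbours on the plus strand. The other cluster holds Oas2 (120730333 to 120749853), Oas3 (120753098 to 120777661), Oas1c (120800194 to 120812514), Oas1b (120812635 to 120824163), Oas1g (120876142 to 120887613) and Oas1a (120896256 to 120907521). Oas1b runs on the plus strand and the other 5 on the minus strand.

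Promoters were read because all 8 members were higher in Dnmt3a KO c-kit+ cells. RefSeq promoters of GRCm38.p6 matched 6 of the 8 members; Oas1b and Oas2 had no entry. The core letters of an interferon-stimulated response element, GAAA, then NN, then GAAA, were searched on both strands from 250 bases before to 50 after each start. They occurred in 4 of the 6 promoters, and in 1131 of all 32851 promoters of that length (3.44%). The 120 bases before the start are shown for those 4, 5′ to 3′ on the strand of the gene, with the matched letters in capitals (2 overlapping matches in Oas1a, Oas1g and Oas1c, the last on the opposite strand).
Oas1a, chr5:120907526-120907645, minus strand: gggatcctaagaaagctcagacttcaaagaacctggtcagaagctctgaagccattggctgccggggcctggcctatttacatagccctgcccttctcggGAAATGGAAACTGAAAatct
Oas1g, chr5:120887614-120887733, minus strand: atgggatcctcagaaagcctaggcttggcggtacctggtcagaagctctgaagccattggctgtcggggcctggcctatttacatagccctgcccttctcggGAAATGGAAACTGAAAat
Oas3, chr5:120777660-120777779, minus strand: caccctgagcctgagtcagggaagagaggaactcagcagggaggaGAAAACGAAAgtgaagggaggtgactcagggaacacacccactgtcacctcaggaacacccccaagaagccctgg
Oas1c, chr5:120812515-120812634, minus strand: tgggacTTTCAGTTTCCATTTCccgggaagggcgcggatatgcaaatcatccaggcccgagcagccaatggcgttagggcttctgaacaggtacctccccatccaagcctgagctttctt

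The matches of Oas1a lay 5 to 20 bases before its start and those of Oas1g 3 to 18 bases before, within a stretch where these promoters share a run of 56 identical bases. Oas1c and Oas1b start back to back, 121 bases apart. The matches on the Oas1c line lay 99 to 114 bases from the Oas1c start but 7 to 22 bases before the Oas1b start, in Oas1b's direction. The Oas3 match lay 66 to 75 bases before its start. The Oasl1 and Oasl2 windows held no such letters. A match is a description of these letters and not a binding site.

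Levels are given as CPM, read counts scaled to library depth, after TMM scaling over all 32 libraries used. Reads assigned to genes, in M reads, numbered 27.4 to 40 per c-kit+ library, 16.9 to 45.8 per LT-HSC library, 33.2 to 47.7 per CMP/GMP library and 3.44 to 36 per MEP library. Of the members' values, 0 of 72 were at 0 reads in c-kit+ libraries, 9 of 64 in LT-HSC, 4 of 64 in CMP/GMP and 20 of 56 in MEP. A count of 0 allows up to 3 reads, or 0.0629 to 0.872 CPM depending on the library (counting error only). The summed level of 8 stem cell markers was 1119 to 2190 CPM in LT-HSC and 39.9 to 301.5 CPM in CMP/GMP and MEP. That of 8 MEP markers was 8712 to 11310 CPM in MEP WT, 3643 to 7874 in MEP Dnmt3a KO and 631.0 to 2517 elsewhere among sorted cells. That of 8 CMP/GMP markers was 6377 to 32510 CPM in CMP/GMP. Dnmt3a was 43.0 to 51.6 CPM in c-kit+ Dnmt3a KO and DKO against 81.3 to 101.6 CPM in WT and Sting KO, and Tmem173, the gene of Sting, was 10.1 to 11.9 CPM in Sting KO and DKO against 44.8 to 67.0 CPM in the others. Libraries that stood apart from their population (median correlation under 0.75) were LT-HSC Dnmt3a KO 2, LT-HSC WT 1 and MEP Dnmt3a KO 2. LT-HSC WT 1 had CMP/GMP markers at 3357 CPM (320.0 to 544.7 in the other LT-HSC libraries), monocyte markers at 549.9 CPM and the 2517 CPM of MEP markers. LT-HSC Dnmt3a KO 2 had monocyte markers at 136.8 CPM, against at most 2.90 in the remaining 6, and MEP Dnmt3a KO 2 had CMP/GMP markers at 2986 CPM. The part of these cells in the Oas values was not tested. The libraries labelled LT-HSC Dnmt3a KO 3 and MEP Dnmt3a KO 2 had Dnmt3a within the WT range. CMP/GMP WT 2 and 4, and MEP Dnmt3a KO 3 and 4, correlated at 0.99 and 0.995. The 2 c-kit+ Dnmt3a KO libraries correlated at 0.996, and other pairs of c-kit+ libraries at 0.973 to 0.995. DKO 1 correlated better with these Dnmt3a KO libraries (0.994 and 0.995) than with DKO 2 and 3 (0.986 and 0.987). DKO 3 correlated better with the Sting KO libraries (0.992 and 0.991) than with DKO 1 and 2 (0.987 and 0.986). The c-kit+ libraries thus did not group by genotype alone, and the reason was not tested. Whether the 2 c-kit+ Dnmt3a KO libraries are independent is not stated in the labels, and no fit summed them.

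In c-kit+ cells, loss of Dnmt3a with Sting present went with higher levels across the family. Oas3, Oas2, Oas1a and Oasl2 rose by 3.07-fold to 5.63-fold, and the other 4 members were also higher in both Dnmt3a KO libraries than in both WT libraries without passing the test. With Sting lost as well, Oas3, Oas2, Oas1a and Oasl2 fell again, at 4.06 to 14.3 CPM over the DKO libraries.

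Oas3, the largest synthetase, had 8.04 and 7.32 CPM in WT libraries and 41.6 and 38.7 CPM in Dnmt3a KO libraries. Sting KO libraries had 14.4 and 12.8 CPM, and DKO libraries 10.04, 5.74 and 11.3 CPM. The Dnmt3a KO libraries stood far above all others, and the Sting KO libraries lay above WT and DKO. The log2 rise in Dnmt3a KO was 2.40 (SE 0.26, adjusted p = 0.00685, edgeR's quasi-likelihood test, Benjamini-Hochberg adjusted over 16026 genes, as for all c-kit+ tests).

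Oas2 had 8.39 and 7.29 CPM in WT libraries and 41.8 and 45.5 CPM in Dnmt3a KO libraries. Sting KO libraries had 10.1 and 5.33 CPM, and DKO libraries 8.98, 4.06 and 7.39 CPM. Again only the Dnmt3a KO pair stood apart, and the other 3 genotypes overlapped. The log2 change from WT to Dnmt3a KO was 2.49 (SE 0.358, adjusted p = 0.0186, edgeR).

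Oas1a, an active synthetase and the member with the highest level per exon length, had 10.6 and 15.4 CPM in WT libraries and 43.0 and 40.1 CPM in Dnmt3a KO libraries. Sting KO libraries had 14.4 and 10.6 CPM, and DKO libraries 14.3, 10.1 and 10.7 CPM. WT, Sting KO and DKO overlapped. The rise in Dnmt3a KO was 1.69 as a log2 difference (SE 0.225, edgeR adjusted p = 0.015). Of the 50-base stretches of Oas1a transcripts 57.6% also occur in Oas1g, so reads of these genes may have been split or exchanged, depending on how the authors counted them.

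Oas1g had 0.604 and 1.11 CPM in WT libraries and 8.17 and 13.6 CPM in Dnmt3a KO libraries. Sting KO libraries had 1.87 and 0.361 CPM, and DKO libraries 3.38, 0.86 and 0.809 CPM. Its fold difference between Dnmt3a KO and WT was the largest of the 8, 12.7-fold, but its libraries scattered most and it did not pass (log2 3.67, SE 0.838, adjusted p = 0.0969, edgeR). It shares 45.2% of its 50-base stretches with Oas1a and is uncertain for that reason.

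The members of the OAS1 group with no known synthetase activity, Oas1b and Oas1c, had lower levels than Oas1a in every c-kit+ library. Both lay below Oas1g in Dnmt3a KO but above it in WT. Oas1b, annotated as a polymorphic pseudogene because laboratory strains carry a truncated form, had 1.72 and 2.89 CPM in WT libraries and 6.54 and 5.46 CPM in Dnmt3a KO libraries. Its log2 difference was 1.39 (SE 0.291, edgeR adjusted p = 0.0788). Its Sting KO and DKO libraries lay between 2.14 and 2.79 CPM, within the WT range. Oas1c had 2.64 and 4.05 CPM in WT libraries and 6.18 and 5.89 CPM in Dnmt3a KO libraries, the smallest difference of the family (log2 0.87, SE 0.284, adjusted p = 0.194, edgeR). Oas1c was also the member whose DKO libraries (5.18, 3.82 and 4.16 CPM) came closest to Dnmt3a KO, with Sting KO at 1.93 and 2.83 CPM.

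The synthetase-like members had differences of similar size in Dnmt3a KO, of which only that of Oasl2 passed. Oasl2, which keeps synthetase activity in the mouse, had 8.84 and 9.36 CPM in WT libraries and 32.0 and 23.4 CPM in Dnmt3a KO libraries. Sting KO libraries had 9.79 and 8.65 CPM, and DKO libraries 8.17, 5.13 and 9.68 CPM. Only the Dnmt3a KO pair stood apart, and the rise was 1.62 as a log2 difference (SE 0.259, edgeR adjusted p = 0.032). Oasl1, which lacks the activity and is known as a translational repressor of Irf7, had 6.87 and 5.59 CPM in WT libraries and 19.99 and 15.1 CPM in Dnmt3a KO libraries. Its difference of 1.51 (SE 0.413) did not pass (adjusted p = 0.138, edgeR). In Sting KO it had 5.10 and 3.16 CPM and in DKO 5.58, 1.86 and 3.29 CPM, all below WT.

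**Figure D1:**
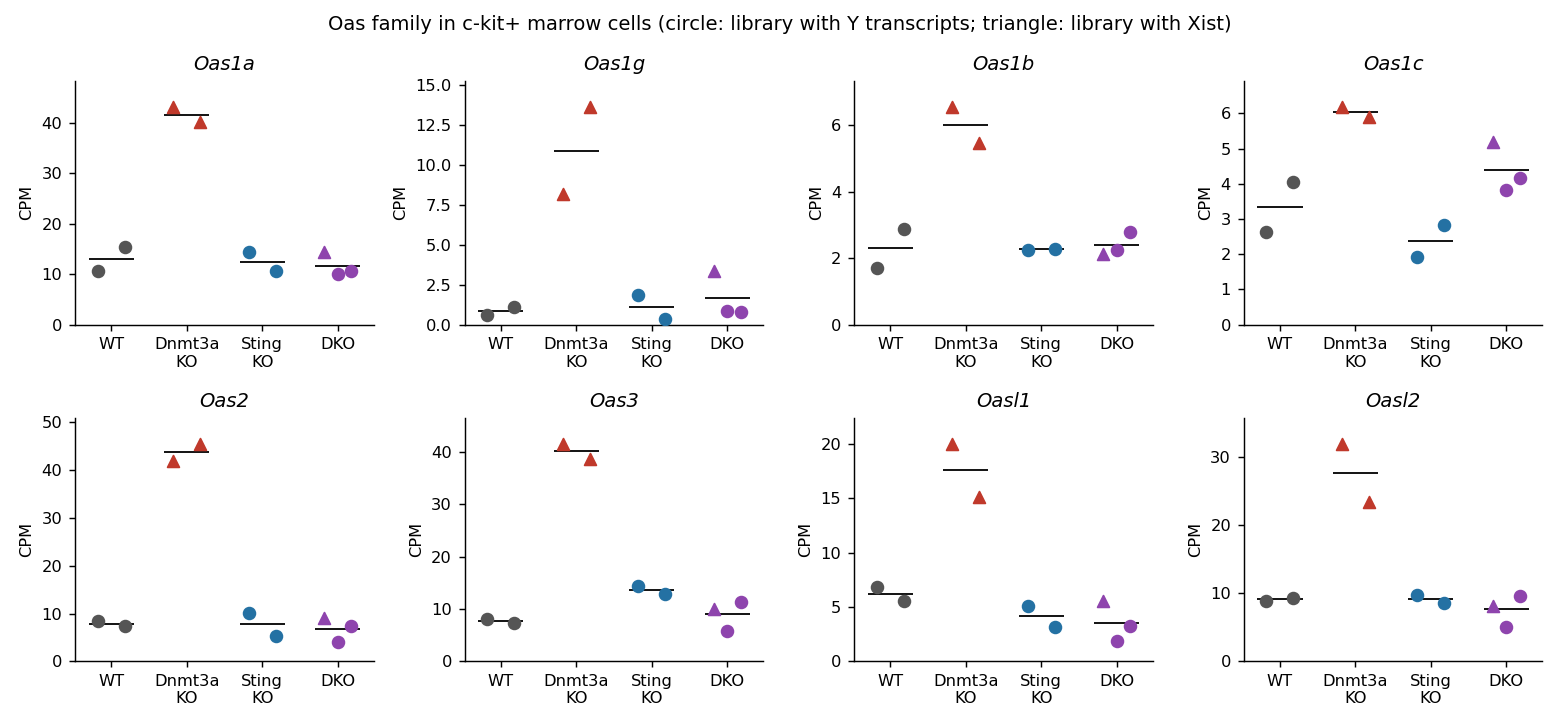
Level (CPM, linear axis from 0) of the 8 Oas members in each c-kit+ library by genotype; points are libraries, the line is the group mean, circles are libraries with Y-chromosome transcripts and triangles libraries with Xist. In each Oas panel the 2 Dnmt3a KO libraries lie above all 7 other libraries.

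In all, 4 of 8 members were called higher in Dnmt3a KO than in WT, where 0.306% of all genes tested were called higher. All 8 differences were positive, with a median of 1.65 on the log2 scale against -0.00117 over all genes. The Dnmt3a KO and WT libraries did not overlap for any of the 8 members; 25.8% of all genes tested were higher without overlap. Per kilobase of exon, the order in WT was Oas1a (6.91 CPM per kb), Oasl1 (2.39), Oas2 (1.76), Oasl2 (1.43), Oas1c (1.39), Oas1b (1.16), Oas3 (1.09) and Oas1g (0.366). From Oasl2 to Oas3, each pair of neighbours in this order overlapped, while the ends of that run, Oasl2 and Oas3, did not. In Dnmt3a KO the order became Oas1a (22.1 CPM per kb), Oas2 (9.81), Oasl1 (6.74), Oas3 (5.68), Oas1g (4.66), Oasl2 (4.34), Oas1b (3.01) and Oas1c (2.51). There Oasl1 and Oas3, Oas3 and Oas1g, and Oas1g and Oasl2 overlapped, while Oasl1 and Oas3 both lay above Oasl2.

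Sting loss alone called no member. With WT as reference 0 of 8 members passed in Sting KO, where 0.774% of all genes were called in either direction (edgeR; 1845 of 16026 genes had an unadjusted p under 0.05). The members' median was -0.03 on the log2 scale. Oas3 was nearest, higher without overlap (as 24.6% of all genes), with a difference of 0.81 (SE 0.255, adjusted p = 0.232, edgeR). DESeq2 called it. Oasl1 lay lower without overlap (as 20.6% of all genes), with a difference of -0.60 (SE 0.419).

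Losing Sting on the Dnmt3a-null background went with lower levels of every member. From Dnmt3a KO to DKO, Oas2 fell by 2.69 (SE 0.313, adjusted p = 0.0185), Oas3 fell by 2.16 (SE 0.225, adjusted p = 0.0123), Oasl2 fell by 1.86 (SE 0.23, adjusted p = 0.0212) and Oas1a fell by 1.84 (SE 0.199, adjusted p = 0.0135), all on the log2 scale with edgeR. These 4 of 8 members compare with 0.156% of all genes called lower. No library of the 2 groups overlapped for any member, against 10.7% of all genes lower without overlap. Oasl1 (-2.30, adjusted p = 0.0697), Oas1b (-1.34, adjusted p = 0.186), Oas1g (-2.71, adjusted p = 0.471) and Oas1c (-0.47, adjusted p = 0.647) did not pass (edgeR). The members' median difference was -2.01, against 0.0125 over all genes.

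The DKO libraries were then set against the Dnmt3a-competent genotypes. Against WT, 0 of 8 members were called, with 1.26% of all genes called (edgeR; 2676 genes at an unadjusted p under 0.05, and 0 members with DESeq2). Against Sting KO, 0 of 8 members and 0% of the 16026 genes were called (edgeR; 1854 genes at an unadjusted p under 0.05). DESeq2 called 135 genes and 0 members there. The widest member differences from WT were Oas1g, 0.96 (SE 0.771), and Oasl1, -0.79 (SE 0.379), the latter lower without overlap, as were 15.6% of all genes. From Sting KO, Oas1c lay higher without overlap (0.90, SE 0.27, adjusted p = 0.374), as did 11.5% of all genes. Oas3 lay lower without overlap (-0.57, SE 0.228, adjusted p = 0.396, edgeR), as did 15.6% of all genes. A p that misses the threshold does not show that these genotypes have equal levels.

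The interaction contrast asks whether Dnmt3a loss had another effect without Sting than with it. Oas3 passed: its Dnmt3a effect was lower without Sting, with a log2 value of -2.97 (SE 0.342, edgeR adjusted p = 0.0136). That made 1 of 8 members, with 0.0749% of all genes called lower. Oas1a (-1.77, adjusted p = 0.0654), Oas2 (-2.66, adjusted p = 0.0772) and Oasl2 (-1.87, adjusted p = 0.0893) had differences of the same sign, and Oas1c had 0.03. These contrasts share libraries and are not independent of each other.

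**Figure D2:**
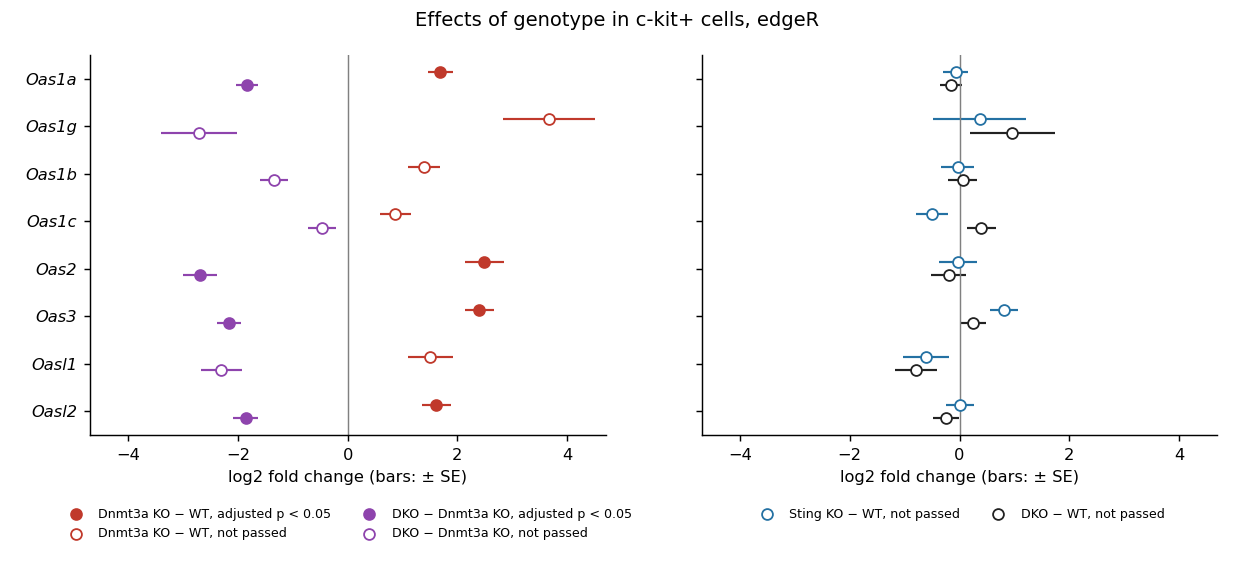
Log2 fold changes with SE (edgeR) of the 8 Oas members in c-kit+ cells; left, Dnmt3a KO against WT (red) and DKO against Dnmt3a KO (purple), right, Sting KO against WT (blue) and DKO against WT (black). Filled points have an adjusted p under 0.05: Oas1a, Oas2, Oas3 and Oasl2 on the left and none on the right.

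In the c-kit+ cells, the sex of the library moved with the genotype. Both Dnmt3a KO libraries and DKO 1 had Xist, which is transcribed from an inactivated X, whereas Y-chromosome transcripts were found in WT, in Sting KO and in DKO 2 and 3, so sex and Dnmt3a loss cannot be told apart within WT and Dnmt3a KO alone. DKO 1, the Dnmt3a-null library with Xist, had Oas3 at 10.04 CPM, Oas2 at 8.98 CPM, Oas1a at 14.3 CPM and Oasl2 at 8.17 CPM, all below both Dnmt3a KO libraries. With only DKO 1 kept in the DKO group, Oas3 was called (-2.02, adjusted p = 0.00661) and Oas2 (-2.30, adjusted p = 0.115), Oas1a (-1.55, adjusted p = 0.183) and Oasl2 (-1.77, adjusted p = 0.0784) were not (edgeR; DKO 1 is then assumed to vary like the other groups). With a sex term added to the fit, no member passed. Oas3 was then higher by 2.18, Oas2 by 1.85, Oasl2 by 1.48 and Oas1a by 1.23 in Dnmt3a KO (adjusted p = 0.398 to 0.676, edgeR). Only the DKO group held both sexes, so this term rested on DKO 1 against DKO 2 and 3. It carries their difference over to the other genotypes and cannot separate sex from Dnmt3a loss where Sting is present.

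The calls also rested on the few libraries. With any 1 of the Dnmt3a KO or WT libraries left out, 0 of 8 members passed in Dnmt3a KO against WT, while all 8 differences stayed positive with medians of 1.52 to 1.88. Without Sting KO 2, Oasl2 also missed (adjusted p = 0.0515, edgeR). With 1 or the other Dnmt3a KO library left out, 0 members passed against DKO, and without DKO 3, Oas2 missed (adjusted p = 0.0668). The Oas3 interaction missed with any 1 Dnmt3a KO library, any 1 WT library or Sting KO 1 left out (adjusted p = 0.0508 to 0.0893, edgeR).

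Other cells in the c-kit+ fraction were read from 8 macrophage markers, whose summed level was 1219 to 1231 CPM in WT, 513.7 to 534.2 CPM in Dnmt3a KO, 308.9 to 334.0 CPM in Sting KO and 348.8 to 515.2 CPM in DKO. The sum was highest in WT, and Cd68 and Vcam1 were called lower in Dnmt3a KO. Of the 8, 5 were called lower in Sting KO than in WT (Vcam1, Cd68, Adgre1, Cd163 and Mrc1) and 7 in DKO, led by Vcam1 and Cd68, and Vcam1 was called in the interaction. Of the 4 tested T and NK cell markers, Ncr1, a receptor of NK cells, was called higher in Dnmt3a KO (log2 1.64, SE 0.269, edgeR adjusted p = 0.0334). It had 5.56 and 6.43 CPM there, 1.93 and 1.94 CPM in WT, and 2.20 to 3.21 CPM in Sting KO and DKO. The summed level of the 5 T and NK cell markers was 170.7 to 180.5 CPM in WT and 172.3 to 178.1 CPM in Dnmt3a KO. The summed level of 5 neutrophil markers was 5759 to 9870 CPM in WT, 13740 to 15080 in Dnmt3a KO, 10780 to 10970 in Sting KO and 9927 to 29840 in DKO. The 5 plasmacytoid dendritic cell markers summed to 110.1 to 117.5 CPM in WT and 104.8 to 112.3 CPM in Dnmt3a KO. Singly, 4 of the 5 were lower in Dnmt3a KO, with a median log2 difference of -1.03, and none passed. The 4 monocyte markers summed to 918.4 to 1162 and 1029 to 1119 CPM in the same groups. No marker of these lists was at 0 in all libraries of a c-kit+ group, and the part of these cells in the Oas values was not tested. In mixed cells, fewer cells of a type and less RNA per cell cannot be told apart.

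Other genes of the pathway were read as well. Neither Abce1 (-0.10), an ATP-binding protein also needed for ribosome recycling, nor the phosphodiesterases Pde12 (0.05) and Enpp1 (0.43) passed in c-kit+ Dnmt3a KO against WT (log2 differences, edgeR). The other Oas1 copies had few or no reads. Oas1d had 0 reads in all 32 libraries, and Oas1e and Oas1f were at or under 0.0603 CPM. Oas1h was at 0.464 and 0.449 CPM in the Dnmt3a KO libraries and at 0 reads in both WT libraries. Its values in Sting KO and DKO reached at most 0.121 CPM. It passed the filter on low counts only through the Dnmt3a KO libraries, where it was high. Its test against WT (adjusted p = 0.154, edgeR) therefore decides nothing.

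Among 14 tested genes of the interferon receptor and transcription factor axis, Irf7, a master regulator of interferon genes, was called higher in Dnmt3a KO (log2 1.55, SE 0.24, adjusted p = 0.027) and lower in DKO than in Dnmt3a KO (-2.41, SE 0.217, adjusted p = 0.00668, edgeR). Irf9 (0.77, adjusted p = 0.129) and Stat2 (0.35, adjusted p = 0.217) did not pass in Dnmt3a KO against WT. Of 10 other sensors of double-stranded RNA, 5 were called higher in Dnmt3a KO (0.306% of all genes tested) and the same 5 lower in DKO (0.156%). They were Ddx58 (RIG-I; 0.95 and -0.66), Ifih1 (MDA5; 0.85 and -0.70), Dhx58 (LGP2; 1.17 and -1.20), Eif2ak2 (the kinase PKR; 0.73 and -0.65) and the RNA editor Adar (0.71 and -0.63), on the log2 scale. The differences of Oas3, Oas2, Oas1a and Oasl2 were larger in size than those of these 5, which was not tested. The calls of Irf7 and the 5 sensors share the few libraries and the sex difference of the Oas calls. With a sex term, 0 of 16026 genes were called in Dnmt3a KO against WT and 1 in DKO against Dnmt3a KO. Without Dnmt3a KO 1 or 2, only 8 and 10 genes were called in Dnmt3a KO against WT (edgeR). Of 9 tested genes of cytosolic DNA sensing, 0 were called in Dnmt3a KO against WT, and besides Tmem173 only Ikbke was called in another c-kit+ comparison (DKO against WT, 0.78). Between WT populations, Ddx58 was called in LT-HSC against MEP (2.55), and Tmem173 (3.93 and 4.53) and Ifi203 (3.64 and 2.63) in LT-HSC and in CMP/GMP against MEP, with Irf8 (5.90) in the latter.

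Of 72 genes that start within 500 kb of a member, 41 were tested in c-kit+ cells. None of the 41 was called in any c-kit+ comparison run, and their median in Dnmt3a KO against WT was -0.07 on the log2 scale (edgeR).

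In the sorted populations the members had another order, and most libraries scattered widely. Oas1a was at 0.469, 42.6, 60.5 and 36.9 CPM in WT LT-HSC, at 35.2, 21.2, 14.6 and 27.6 CPM in WT CMP/GMP, and at 12.8, 14.4 and 14.1 CPM in WT MEP. The value near 0 is that of WT 1, which stood apart. In mean levels Oas1a ran from LT-HSC (35.1 ± 25.2 CPM, SD, n = 4) over CMP/GMP (24.7 ± 8.81, n = 4) to MEP (13.8 ± 0.827, n = 3) and c-kit+ WT (13.03 ± 3.41, n = 2). Neither LT-HSC and CMP/GMP nor MEP and c-kit+ differed beyond their spread.

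Oasl2 was at 1.31, 67.6, 53.9 and 68.3 CPM in WT LT-HSC, again with WT 1 low. It was at 7.09, 9.33, 3.40 and 14.8 CPM in WT CMP/GMP and at 6.87, 1.97 and 10.9 CPM in WT MEP. The mean was thus highest in LT-HSC, where 3 of 4 libraries lay above all other WT libraries and WT 1 below both c-kit+ WT libraries (8.84 and 9.36 CPM). The other 3 populations overlapped. Oasl1 had the opposite order. Its mean was 19.6 ± 9.67 CPM in WT MEP (SD, n = 3), 5.78 ± 3.88 in CMP/GMP (n = 4) and 3.13 ± 4.73 in LT-HSC (n = 4), with 6.23 CPM in c-kit+ WT.

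Oas1g averaged 10.7 ± 4.11 CPM in WT LT-HSC (SD, n = 4), 2.26 ± 1.64 in CMP/GMP (n = 4) and 0.543 ± 0.886 in MEP (n = 3). Oas3 averaged 10.3 ± 7.45 CPM in WT LT-HSC, 5.17 ± 3.68 in MEP and 3.81 ± 1.65 in CMP/GMP, neighbours within their spread. Oas2 was low in all sorted WT cells, between 0 and 7.17 CPM, and highest in c-kit+ WT (7.84 CPM). Oas1b (0 to 6.25 CPM) and Oas1c (0 to 8.14 CPM) were low throughout and lowest on average in CMP/GMP (0.586 and 1.73 CPM).

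Between WT populations, 0 of 8 members were called in LT-HSC against CMP/GMP (3.56% of all genes called; 3532 of 16136 at an unadjusted p under 0.05), LT-HSC against MEP (5.99%; 3951 genes) or CMP/GMP against MEP (1.41%; 2086 genes), all with edgeR. The lowest adjusted p were those of Oas1g (4.26, SE 1.96, adjusted p = 0.185) and Oasl2 (2.84, SE 1.36, adjusted p = 0.198) in LT-HSC against MEP, and Oasl2 (2.46, SE 1.19, adjusted p = 0.229) in LT-HSC against CMP/GMP. Values are relative to all genes, whose median was 0.106 in LT-HSC against CMP/GMP and 0.187 against MEP. DESeq2 called Oas1g in LT-HSC against MEP, among 2625 genes, and edgeR called Oas1a there, among 1894 of 15952 genes, once the libraries that stood apart were left out.

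**Figure D3:**
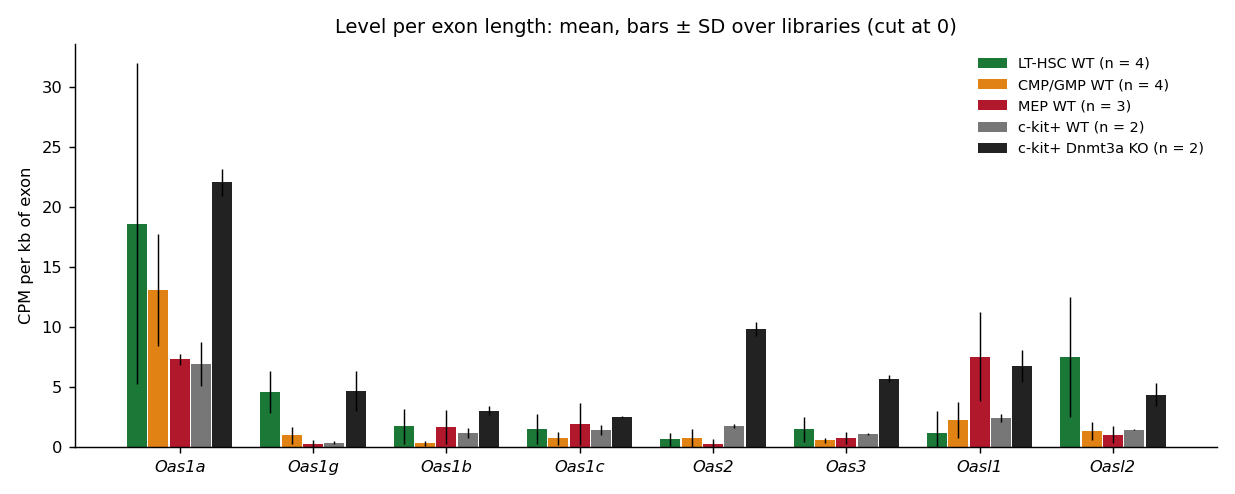
Mean level per exon length (CPM per kb, linear axis from 0; bars ± SD over libraries, cut at 0) of the 8 Oas members in the WT populations and in c-kit+ Dnmt3a KO. Oas1a is the tallest Oas bar in each group but WT MEP, where Oasl1 (7.51 CPM per kb) and Oas1a (7.31) are level, and Oas2 stands out in c-kit+ Dnmt3a KO (9.81).

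Loss of Dnmt3a called no member in any sorted population. In LT-HSC 0 of 8 members and 0% of 12800 genes passed (151 at an unadjusted p under 0.05), in CMP/GMP 0 of 8 and 0% of 13205 genes (1196), and in MEP 0 of 6 tested members and 0% of 12323 genes (1607), all with edgeR. DESeq2 called 0 members in each, with 7, 160 and 561 genes called. In LT-HSC, Oas3 had 18.4, 21.4, 14.1 and 41.1 CPM in Dnmt3a KO libraries and 3.29, 5.15, 19.2 and 13.7 CPM in WT libraries. The groups overlapped, and the difference was 1.21 on the log2 scale (SE 0.784). Oas1a was at 49.1, 0, 62.9 and 30.4 CPM in LT-HSC Dnmt3a KO, with a difference of 0.03 (SE 1.35), and Oasl2 was at 56.4, 53.2, 47.8 and 28.3 CPM, with a difference of -0.02 (SE 0.793). The 0 of Oas1a is that of Dnmt3a KO 2, which stood apart.

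In CMP/GMP the steadiest member was Oas1a, at 36.1, 17.2, 22.4 and 19.9 CPM in Dnmt3a KO, with a difference of -0.04 (SE 0.336). The widest was Oas1b, at 6.52, 0.546, 0.552 and 2.17 CPM in Dnmt3a KO against 0.0308 to 1.09 CPM in WT (2.06, SE 1.23, adjusted p = 0.676, edgeR). The members' median difference there was -0.09.

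In MEP, Oasl1 had 18.1, 18.8, 75.0 and 92.3 CPM in Dnmt3a KO libraries, against 13.3, 14.7 and 30.7 CPM in WT. The high values are those of Dnmt3a KO 3 and 4, which were nearly identical libraries, and the difference of 1.37 (SE 0.734) did not pass (adjusted p = 0.452, edgeR). Oasl2 was at 3.28 CPM in Dnmt3a KO 1 and at 0 reads in the other 3, against 6.87, 1.97 and 10.9 CPM in WT (adjusted p = 0.536). Oas3 had 10.6, 0, 0 and 0.192 CPM in Dnmt3a KO libraries, against 2.19, 9.28 and 4.04 CPM in WT (adjusted p = 0.836). Without Dnmt3a KO 1, Oas3 (adjusted p = 0.0365) and Oasl2 (adjusted p = 0.0188) were called lower with edgeR, 2 of 6 members tested. Of all 11880 genes, 2882 were called there and 1590 of these were lower, so such calls were common and not particular to the family. Dnmt3a KO 1 correlated at 0.916 to 0.924 with the MEP WT libraries and at 0.715 to 0.763 with the other Dnmt3a KO libraries. Oas2 had 0 reads in all 4 Dnmt3a KO libraries and in 2 of the 3 WT libraries, and with Oas1g it was not tested in MEP.

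**Figure D4:**
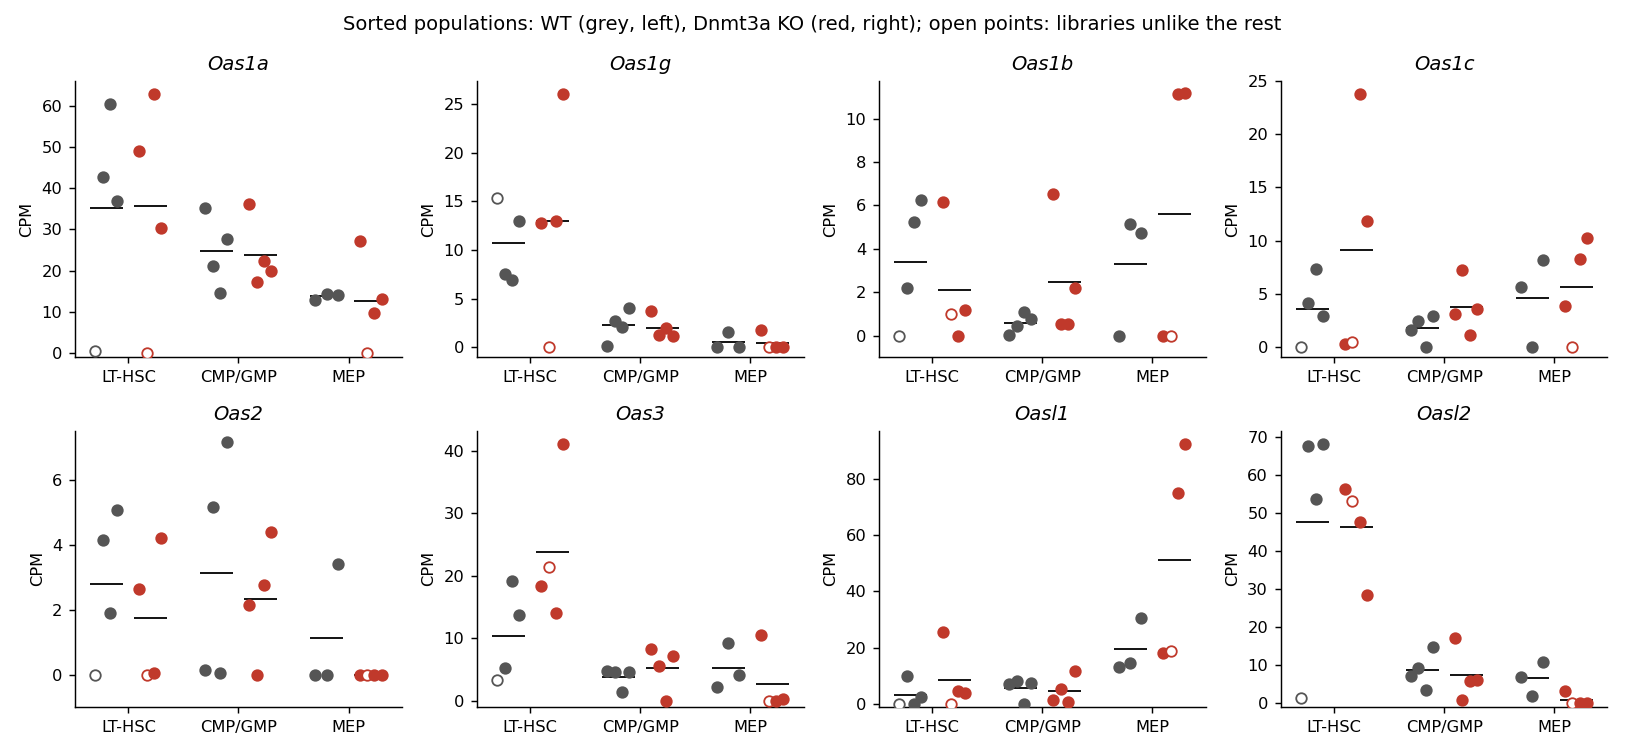
Level (CPM, linear axis) of the 8 Oas members in each sorted library, WT in grey and Dnmt3a KO in red; lines are group means and open points are the 3 libraries that stood apart from their population. WT and Dnmt3a KO overlap in every panel, and Oasl1 in MEP holds the highest Oas values (75.0 and 92.3 CPM).

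The difference of the Dnmt3a effect between LT-HSC, CMP/GMP and MEP was tested itself, by an F-test over the 3 populations. It called 0 of 8 members, with 0.0186% of all genes called (edgeR; 1929 of 16136 at an unadjusted p under 0.05, and 0 members with DESeq2). Oas2 was lowest (adjusted p = 0.505). Without MEP Dnmt3a KO 1, Oasl2 was called, among 844 of 16064 genes. No test compared the c-kit+ cells with the sorted populations.

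Genes most like the 3 most abundant members were sought among 11242 genes over the 32 libraries, after each population's mean was removed from log2 CPM. For Oas1a they were Mina (r = 0.949), Fkbpl (0.947) and Wdr53 (0.946). Without the 3 libraries that stood apart these values were 0.228, 0.260 and -0.05, so they rested on those libraries. For Oasl2 they were Gm37416 (0.910), 4931428F04Rik (0.892) and Cmtr1 (0.885), and 0.833 to 0.890 without the 3. For Oasl1 they were Mast1 (0.724), Rnf208 (0.718) and Chrnb2 (0.714), and 0.641 to 0.791 without the 3. Within the 9 c-kit+ libraries the values were lower: -0.21 to 0.402 for Oas1a, -0.07 (Cmtr1) to 0.647 for Oasl2 and 0.0687 to 0.241 for Oasl1. The points share libraries and depth, and the values are descriptions.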

How the data were processed

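The authors deposited raw read counts per gene symbol, whole numbers that were not normalized. The submitters' processing notes name Trim Galore 0.6.7, HISAT2, the build mm10 and, for assigning reads, featureCounts 2.0.1. The annotation, strand setting and treatment of reads with several matches are not stated there, so overlapping and near-identical genes cannot be told apart. Of 40 columns, 32 matched a single library; 8 that repeat the names of short-term stem cell WT libraries were not used, and the transposable element table was not analysed here.

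Counts were tested in R 4.3.3 with edgeR 4.0.16 (quasi-likelihood test, TMM, filterByExpr with a minimum count of 10 and total of 15, Benjamini-Hochberg over all genes, adjusted p under 0.05). The 9 c-kit+ libraries shared a fit, each sorted population was fitted alone for genotype, and populations were compared in a joint fit. Alternatives were DESeq2 1.42.0, limma-voom with a quality weight for each library (limma 3.58.1), RLE size factors and no filter. Others were a replicate block, a sex term, only the groups compared and leaving out libraries. Every result named limma-voom here is from the weighted fit. Leaving out libraries that stood apart, summing near-identical ones (sorted cells only) and keeping only Xist libraries were added after seeing the data. Scripts were tested on simulated counts. Levels per kb use GENCODE vM21 exon lengths. The members, gene lists and tests were chosen with earlier results of these data known. Named were all members, Dnmt3a, Tmem173, called genes of the pathway lists and, in c-kit+ cells, of other cells' markers (at most 5 each) and the 3 genes most like each of the 3 most abundant members; population markers and called neighbours are left as counts or out, against the rule as set, and other named genes were chosen after their values were seen. Results of some genes are not reported here.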

Additional observations from a re-analysis of the deposited data

Results flagged for a closer look

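The interaction of Dnmt3a and Sting loss in c-kit+ cells was called for Oas3, with a log2 value of -2.97 (SE 0.342, edgeR adjusted p = 0.0136). The Dnmt3a difference was 2.40 with Sting and -0.57 without it.

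Of 40 sets of 4 libraries (8 members in 5 sorted groups) tested for a library far from the others, 5 had one. The sets share libraries and some hold several values at 0, so this number cannot be set against chance. In MEP Dnmt3a KO, replicate 1 was far above the other 3 libraries for Oas3 (10.6 CPM), Oasl2 (3.28 CPM) and Oas1g (1.79 CPM). This replicate had macrophage markers at 102.3 CPM, against 3.65 to 29.6 in the other MEP libraries. Its CMP/GMP markers were at 1313 CPM, against 72.5 to 529.6 in MEP WT. In Dnmt3a KO 2, 3 and 4 they were at 2986, 69.5 and 80.8 CPM. Dnmt3a KO 2, a library of 3.44 M reads, had 0 reads of Oas3, Oasl2 and Oas1g. Replicate 1 correlated better with the MEP WT libraries than with the other Dnmt3a KO libraries. The part of this in its Oas values was not tested. In CMP/GMP WT, replicate 3 was far below the others for Oas3 (1.34 CPM) and Oasl1 (0 CPM). That library had CMP/GMP markers at 32510 CPM against 6377 to 9018 in the other 3, monocyte markers at 1912 CPM against 132.7 to 165.4, and was the one with Xist among the 4. Whether these bear on its Oas values was not tested.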

How the results depend on the processing

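No result changed sign as a call under any alternative run. In Dnmt3a KO against WT in c-kit+ cells, the 4 called members became 7 with DESeq2, limma-voom, no filter on low counts and only the 2 groups compared, and 0 with a sex term. In DKO against Dnmt3a KO the 4 became 6 with DESeq2, 5 with limma-voom, 7 without the filter, and 0 with a sex term or only the 2 groups compared. With DKO 2 and 3 left out, all 8 differences stayed negative, with a median of -1.69 on the log2 scale. The WT and Sting KO libraries, which had Y-chromosome transcripts, stayed in that fit, and DKO 1 alone stood for its group. The interaction's 1 member became 4 with DESeq2, 3 with limma-voom, 6 without the filter and 0 with a sex term. Over all genes, the interaction called 199 of 16026 with DESeq2, 59 with limma-voom, 446 of 23582 without the filter and 5 with a sex term. Counts of 0 became 1 in Sting KO against WT with DESeq2 (462 of 16026 genes called) and without the filter (735 of 23582). In DKO against WT the count became 1 without the filter (1359 of 23582 genes called). In sorted cells, counts of 0 became 3 with limma-voom in MEP and 2 in the F-test over populations (7800 of 12323 and 4106 of 16136 genes called); between WT populations they became 1 (LT-HSC against CMP/GMP), 2 (LT-HSC against MEP) and 1 (CMP/GMP against MEP) with limma-voom, which called 3911, 2998 and 3825 of 16136 genes there, and 1 in LT-HSC against MEP with DESeq2 or without the libraries that stood apart. Apart from smaller sets of libraries, the cause was not tested. Leaving out each library in turn gave 0 to 5 members in Dnmt3a KO against WT, 0 to 1 in Sting KO against WT, 0 to 5 in DKO against Dnmt3a KO, 0 to 4 in the interaction, 0 to 2 in MEP, 0 to 1 in the F-test and 0 in the other comparisons. Replicate numbers were not taken to pair the libraries: same-numbered libraries correlated between -0.198 and 0.171 in their deviations. With a replicate block, the interaction called 2 members (Oas3 and Oasl2), DKO against Dnmt3a KO 3 of 4, and Dnmt3a KO against WT 4. Each WT LT-HSC library correlated best with its own number in WT CMP/GMP (4 of 4, r of 0.048 to 0.171) and, where there is one, in WT MEP (3 of 3, 0.0628 to 0.103), a hint from the data and not from the design. The WT libraries numbered 4 did not match in sex. CMP/GMP WT 4 had Y-chromosome transcripts (219.5 CPM), whereas LT-HSC WT 4 and MEP WT 4 had Xist (1033 and 895.8 CPM). Over all genes, the 91 calls of 16026 in Dnmt3a KO against WT became 647 with DESeq2, 924 with limma-voom, 181 with the block and 0 with a sex term. They became 1219 of 23582 without the filter and 1260 of 15088 with only the 2 groups compared. The 25 calls in DKO against Dnmt3a KO became 99 with DESeq2, 28 with limma-voom and 415 without the filter. They became 11 with the block and 1 with a sex term or with only the 2 groups compared. Of the 20 member values at 0 reads in MEP, 7 were in Dnmt3a KO 2 (3.44 M reads) and the others in libraries of 24.3 to 36 M reads.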
